A study of Homo sapiens with 12 samples.

Results

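Transcripts of 5 growth factor receptor genes, ALK, EGFR, FGFR1, KDR and GFRA2, were measured in SK-N-BE(2) cells, an established neuroblastoma line with amplified MYCN, after BET bromodomain inhibition, histone deacetylase inhibition or both. The receptors were selected by symbol from 14884 named genes, with earlier results of these data known. Each was read by 1 transcript cluster, the set of array probes assigned to 1 transcribed locus. The clusters are 16896049 for ALK, 17046135 for EGFR, 17076415 for FGFR1, 16976029 for KDR and 17075248 for GFRA2. The cells, kept in DMEM with 10% fetal calf serum, received vehicle, JQ1 at 1 µM, panobinostat at 10 nM, or JQ1 at 1 µM plus panobinostat at 10 nM. Exposure lasted 6 h, and each of the 4 groups had 3 Affymetrix Human Gene ST arrays, 12 in all. All groups share the single cell line and the serum, which itself carries growth factors. JQ1 displaces BET proteins from acetylated histones, and panobinostat blocks the enzymes that remove those acetyl groups.

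Receptor tyrosine kinases sit in the plasma membrane, bind a growth factor outside the cell, pair, phosphorylate each other and recruit adaptors that switch on the RAS-ERK and PI3K-AKT cascades. ALK is the receptor most often mutated in neuroblastoma, and EGFR binds EGF and its relatives. FGFR1 binds fibroblast growth factors with heparan sulphate as a helper, and KDR (VEGFR2) is the main signalling receptor for VEGFA on blood vessel cells. GFRA2 has no kinase domain. It is a lipid-anchored co-receptor that holds neurturin (the product of NRTN) and presents it to the receptor tyrosine kinase RET in neurons of the neural crest lineage.

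The compounds act on chromatin, so the 250 bases upstream of the annotated gene start are shown for EGFR, which fell with the combination, KDR, which rose, and ALK, which was not called, to set these 3 kinds of response beside their upstream letters. They are RefSeq sequences on GRCh38.p14, written 5′ to 3′ on the strand of the gene. Capitals mark the GC box, GGGCGG or CCGCCC on the other strand, which is the core letters of a site for SP-family factors. ALK lies on the minus strand of chromosome 2 (chr2:29921587-29921836), EGFR on the plus strand of chromosome 7 (chr7:55018767-55019016) and KDR on the minus strand of chromosome 4 (chr4:55125596-55125845).
ALK: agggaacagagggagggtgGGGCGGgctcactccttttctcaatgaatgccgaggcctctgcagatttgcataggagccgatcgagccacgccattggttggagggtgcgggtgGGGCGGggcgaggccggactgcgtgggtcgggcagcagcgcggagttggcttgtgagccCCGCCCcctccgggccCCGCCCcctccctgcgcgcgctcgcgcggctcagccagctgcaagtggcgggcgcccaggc
EGFR: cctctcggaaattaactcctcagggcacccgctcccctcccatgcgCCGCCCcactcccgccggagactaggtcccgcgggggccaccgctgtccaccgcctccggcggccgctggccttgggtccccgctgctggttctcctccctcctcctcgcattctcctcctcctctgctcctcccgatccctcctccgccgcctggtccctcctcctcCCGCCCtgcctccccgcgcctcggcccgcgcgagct
KDR: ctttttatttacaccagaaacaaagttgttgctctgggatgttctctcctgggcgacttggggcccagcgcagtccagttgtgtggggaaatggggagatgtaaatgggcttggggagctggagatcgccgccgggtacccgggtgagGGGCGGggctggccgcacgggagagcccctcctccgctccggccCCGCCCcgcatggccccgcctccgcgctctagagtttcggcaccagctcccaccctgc
The ALK stretch held 4 GC boxes, 24 CpG dinucleotides and 71.6% G and C. The EGFR stretch held 2 GC boxes, 25 CpG and 73.6% G and C, and the KDR stretch 2 GC boxes, 17 CpG and 65.2%. A GC box was present in 42.6% of 35116 promoter windows of the same length. No copy of CACGTG, the E-box bound by MYC-family proteins (6.34% of all windows, the motif being its own reverse complement), was found in these 3 stretches. TATAAA or its reverse complement TTTATA (10.7% of all windows) was not found either, so no searched motifs overlapped. G and C made up 65.2% to 73.6% of the 3 stretches, and their share over all windows was not computed. The stretches of GFRA2 and FGFR1 are not shown. Any relation of these letters to the responses was not tested. These matches describe letters only.

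Values are log2 signals as deposited, and a difference of 1 is a 2-fold change if the scale is log2, as its range implies. Each change carries its SE from the limma fit (n = 3 arrays in every group), and "called" means an adjusted p under 0.05 after Benjamini-Hochberg correction over all 14884 genes. Within-group correlations of arrays were 0.9906 to 0.9952 and between-group correlations 0.9617 to 0.9887, and no 2 arrays held identical values. The labels leave unsaid whether replicates were separate cultures, so the p-values speak only to the spread between these arrays, possibly a technical spread. The vehicle 1 and panobinostat 1 arrays stood farthest from their groups, and all 11 member changes from vehicle that were called remained called without them. Of 12 adrenergic neuroblast markers, 11 were measured, and all 11 had a mean signal over 6.754, the 40th percentile of genes. In these bulk samples, fewer cells of a type and less RNA per cell cannot be told apart.

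With JQ1, 3 of the 5 receptor genes were called (1 higher and 2 lower), against 17.6% of all genes called (8.18% higher and 9.47% lower). With panobinostat 4 were called (2 higher and 2 lower), against 29.3% of all genes (14.5% higher and 14.8% lower). Centring each array on its median moved the split of all genes called with panobinostat from 2161 higher and 2202 lower to 1441 and 2310. With both compounds 4 were called (2 higher and 2 lower), against 37.7% of all genes (18.2% higher and 19.5% lower). Treated and vehicle arrays did not overlap for 3, 5 and 4 of the 5 genes with JQ1, panobinostat and both, where 33.5%, 39.8% and 46.1% of all genes did not overlap. GFRA2 and EGFR fell in each treated group, FGFR1 rose in each, KDR rose in the groups that received panobinostat, and ALK passed the test in none. The 3 treated groups share the vehicle arrays. Because the receptors were chosen with earlier results of these data known, their counts here and below are no test against the shares of all genes. Those shares also include dim genes, whereas all receptors but KDR had a mean signal over the 40th percentile.

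**Figure D1:**
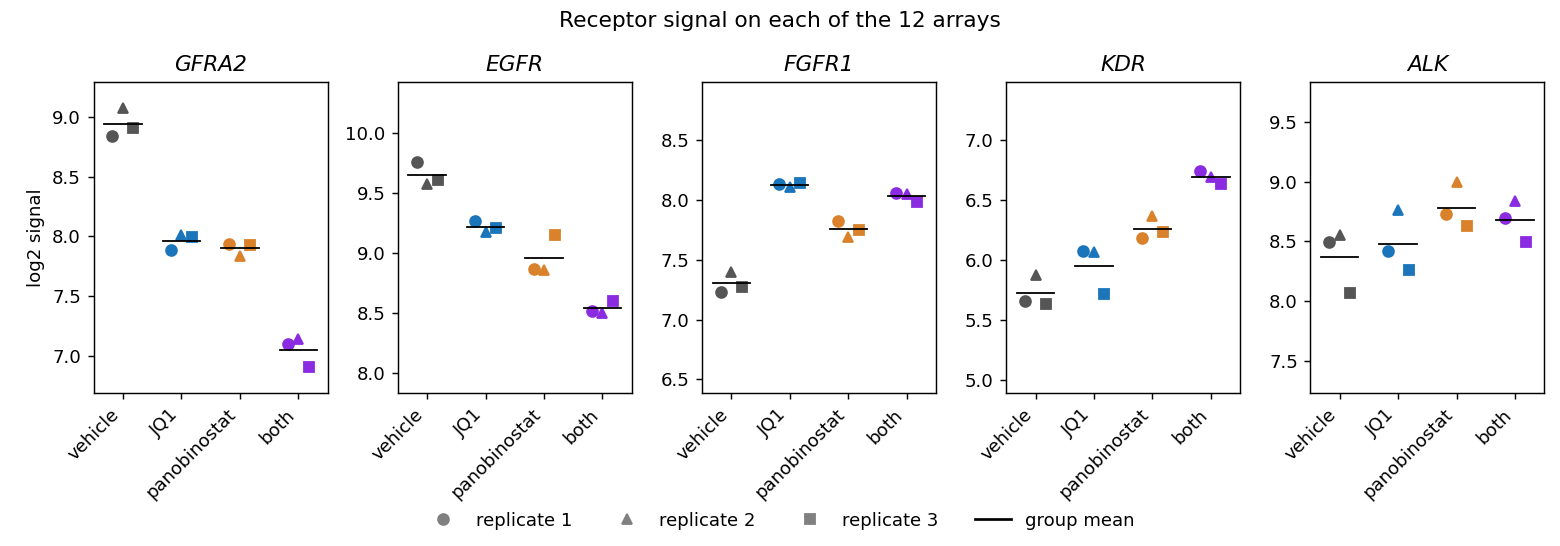
Log2 signal (y axis) of the 5 receptor genes on each of the 12 arrays, with 1 panel per gene, treatment groups on the x axis, a point per array (the shape gives the replicate number) and a line at the group mean of 3 arrays. GFRA2 steps down from 8.84 to 9.07 with vehicle to 6.91 to 7.14 with both compounds, whereas replicate 2 of ALK is the highest and replicate 3 the lowest array in every group. Panels have separate y axes of equal span.

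GFRA2, the neurturin co-receptor, had the largest response of the 5 genes to each treatment. Its log2 signal was 8.84, 9.07 and 8.91 on the vehicle arrays, 7.887, 8.013 and 7.995 with JQ1, 7.94, 7.84 and 7.93 with panobinostat, and 7.10, 7.14 and 6.91 with both. The vehicle arrays were the highest and the arrays with both compounds the lowest, with no overlap, while the JQ1 and panobinostat arrays lay in between and overlapped each other. GFRA2 fell by 0.97 ± 0.08 with JQ1 (1.96-fold lower, adjusted p = 2.57e-05) and by 1.04 ± 0.08 with panobinostat (2.05-fold lower, adjusted p = 5.81e-06). With both compounds it fell by 1.89 ± 0.08, a 3.70-fold lower signal (adjusted p = 2.71e-08), the 51st largest fall among the 14884 genes. The combination was lower than JQ1 alone (-0.91 ± 0.08) and lower than panobinostat alone (-0.85 ± 0.08), both called. The 2 single agents were not told apart (panobinostat minus JQ1 -0.06, 95% interval -0.25 to 0.12).

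EGFR fell with each compound and fell furthest with both. The vehicle arrays read 9.76, 9.58 and 9.61, the JQ1 arrays 9.27, 9.18 and 9.21, the panobinostat arrays 8.87, 8.86 and 9.15, and the arrays with both 8.52, 8.50 and 8.60. The 4 groups formed a descending order without overlap, although panobinostat replicate 3 lay close to the JQ1 arrays. The falls were 1.35-fold with JQ1 (-0.43 ± 0.09, adjusted p = 0.00504), 1.62-fold with panobinostat (-0.69 ± 0.09, adjusted p = 0.000122) and 2.16-fold with both (-1.11 ± 0.09, adjusted p = 1.42e-06). Both compounds gave less signal than JQ1 alone (-0.68 ± 0.09) and than panobinostat alone (-0.42 ± 0.09, adjusted p = 0.00782). The step from JQ1 to panobinostat was -0.26 ± 0.09 with an adjusted p of 0.0493. That call ended when any array other than vehicle replicate 1 or panobinostat replicate 3 was left out (values -0.28 to -0.21 in those 10 fits). It also ended with median centring (-0.32), quantile normalization (-0.22) and 4 other settings, and stood in 5 of 21 alternatives (adjusted p 0.00937 to 0.157).

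FGFR1 rose in all 3 treated groups, and JQ1 alone gave its highest signal. Its vehicle arrays read 7.23, 7.40 and 7.28. They were followed by panobinostat at 7.82, 7.69 and 7.75, both compounds at 8.06, 8.05 and 7.98, and JQ1 at 8.13, 8.10 and 8.14. No groups overlapped, and the JQ1 arrays were higher than those with both compounds. The rise was 1.77-fold with JQ1 (0.82 ± 0.07, adjusted p = 1.5e-05), 1.37-fold with panobinostat (0.45 ± 0.07, adjusted p = 0.000337) and 1.66-fold with both (0.73 ± 0.07, adjusted p = 4.3e-06). FGFR1 was lower with panobinostat than with JQ1 (-0.37 ± 0.07, adjusted p = 0.00178). Panobinostat added to JQ1 gave -0.10 ± 0.07, which was not called (adjusted p = 0.337, 95% interval -0.24 to 0.05). JQ1 added to panobinostat gave 0.28 ± 0.07 (adjusted p = 0.0164), a call that ended without combination replicate 1 (0.26), combination replicate 2 (0.27) or panobinostat replicate 2 (0.24). It also ended over all clusters and with only the groups compared (0.28 each, adjusted p 0.005 to 0.0715 over 21 alternatives).

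KDR, best known from endothelial cells, was a dim transcript here that rose with panobinostat and rose further with both compounds. Its mean over the 12 arrays, 6.16, lay below the 40th percentile of genes, the only one of the 5 receptors to do so. No detection call was used here, so its distance from background is unknown. The vehicle arrays read 5.65, 5.88 and 5.63, JQ1 6.07, 6.07 and 5.71, panobinostat 6.18, 6.37 and 6.24, and both compounds 6.74, 6.69 and 6.63. JQ1 replicate 3 fell inside the vehicle range, while the panobinostat arrays lay above all JQ1 arrays and those with both compounds above all others. KDR was 1.46-fold higher with panobinostat (0.54 ± 0.11, adjusted p = 0.00226) and 1.96-fold higher with both (0.97 ± 0.11, adjusted p = 1.77e-05). Its value with JQ1 was 0.23 ± 0.11 and was not called (adjusted p = 0.172), but without JQ1 replicate 3 it was 0.35 (adjusted p = 0.0317, against 0.0317 to 0.417 over all alternatives). The combination exceeded JQ1 by 0.74 ± 0.11 (adjusted p = 0.000367) and panobinostat by 0.43 ± 0.11 (adjusted p = 0.0189). The latter call ended over all clusters (0.43), and without combination replicate 1 (0.40) or 2 (0.43) or panobinostat replicate 1 (0.39) or 3 (0.42). Panobinostat minus JQ1 was 0.31 ± 0.11 (adjusted p = 0.055), and it was called without vehicle replicate 2 (0.31, adjusted p = 0.0467, against 0.0431 to 0.195 over the alternatives).

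KDR was also set beside markers of endothelial cells. Of 10 such markers 7 were measured, 1 (CLDN5) lay above the 40th percentile, and limma called 0 in any of the 7 comparisons (3 of 49 unadjusted p-values were under 0.05). Their summed log2 signal was 41.47 to 43.87 on the vehicle arrays and 42.33 to 43.51 on the arrays with both compounds. PECAM1, an endothelial adhesion protein, averaged 5.21 with vehicle and 5.38 with both. FLT1, the VEGF receptor related to KDR, was at -0.09 ± 0.12 with both compounds (adjusted p = 0.614).

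ALK was not called in any of the 7 comparisons of the fit to all 12 arrays. It read 8.49, 8.55 and 8.07 with vehicle, 8.42, 8.76 and 8.26 with JQ1, 8.73, 8.99 and 8.63 with panobinostat, and 8.70, 8.84 and 8.50 with both. In each group its replicates spread more than those of the other receptors, with an SD of 0.17 to 0.26 within groups against 0.02 to 0.21 for the other 4 genes. Replicate 2 was the highest and replicate 3 the lowest array in every group. With a replicate block in the limma fit, the SE of the ALK change with panobinostat was 0.08 instead of 0.16 (adjusted p = 0.00521). The panobinostat arrays lay above all vehicle arrays, while those of the other treated groups overlapped with vehicle. JQ1 gave 0.11 ± 0.16 (adjusted p = 0.731). Panobinostat gave 0.41 ± 0.16 (adjusted p = 0.0792), the 1 comparison with an unadjusted p under 0.05 (0.0264). The combination gave 0.31 ± 0.16 (adjusted p = 0.171). The 95% intervals of these 3 values were -0.24 to 0.46, 0.06 to 0.76 and -0.05 to 0.66. Over 21 alternatives ALK was called in 3 with panobinostat (adjusted p 0.00521 to 0.274), in 1 with both (0.0157 to 0.513) and in 1 for panobinostat against JQ1 (0.0303 to 0.508). Without vehicle replicate 3 the value with panobinostat was 0.26 and with both 0.16. The JQ1 value changed sign without JQ1 replicate 2 (-0.03) or vehicle replicate 3 (-0.04).

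The design allows the combination to be set against the sum of the single changes, the interaction of the fit, for which 0.759% of all genes were called. FGFR1 was the 1 receptor called. Its single changes summed to 1.27, its change with both was 0.73, and the departure was -0.55 ± 0.09 (adjusted p = 0.0239). The sign held in all 20 alternatives (-0.60 to -0.48), but the adjusted p ranged from 0.00572 to 0.119. Leaving out any array except vehicle replicate 2, panobinostat replicate 2 or combination replicate 1 ended the call, with values of -0.56 to -0.51. The falls of GFRA2 and EGFR came close to the sums. GFRA2 summed to -2.01 against -1.89 with both (departure 0.12, 95% interval -0.14 to 0.38), and EGFR to -1.12 against -1.11 (departure 0.01, interval -0.26 to 0.28). KDR summed to 0.77 against 0.97 (departure 0.20, interval -0.13 to 0.53), and ALK to 0.52 against 0.31 (departure -0.21, interval -0.71 to 0.29). These 4 departures were not called.

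**Figure D2:**
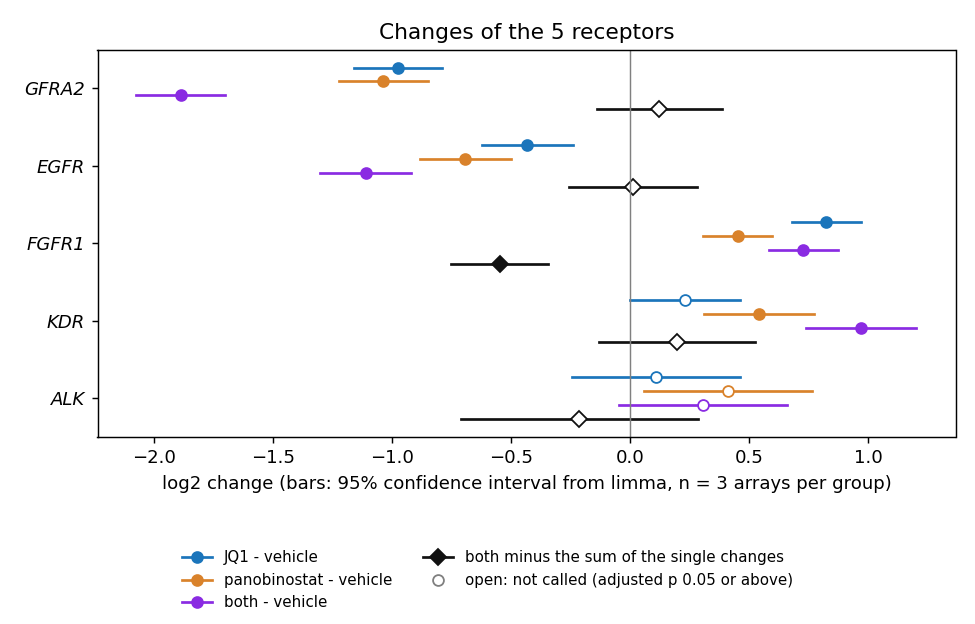
Log2 change (x axis) of each receptor gene (y axis) with JQ1, panobinostat and both against vehicle, and, as diamonds, the change with both minus the sum of the single changes. Bars are 95% confidence intervals from limma (n = 3 arrays per group), and open symbols were not called. The diamonds of GFRA2, EGFR, KDR and ALK span 0, and that of FGFR1 lies at -0.55.

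Compared directly, the combination differed from JQ1 for 3 of the 5 receptors (25.6% of all genes called) and from panobinostat for 4 (14.7%). Panobinostat differed from JQ1 for 2 (23.3%), FGFR1 and, in the fit to all arrays but in few alternatives, EGFR, both lower with panobinostat. GFRA2, EGFR and KDR were moved further by the pair than by either compound, each in its own direction. For FGFR1 the pair exceeded panobinostat only. Against panobinostat, the call for the pair stood in 14 of 20 alternatives for KDR and in 16 of 21 for FGFR1.

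Among 44 other measured receptor tyrosine kinases, 4 rose and 4 fell with JQ1, 9 rose and 5 fell with panobinostat, and 10 rose and 6 fell with both. These are near the shares of all genes called, 17.6%, 29.3% and 37.7%. Their median change with both was 0.04, against 0.02 for all genes. MERTK, a receptor that helps engulf dying cells, rose 3.72-fold with both (1.89 ± 0.13, adjusted p = 5.85e-07). Its vehicle arrays read 6.37 to 6.87 and those with both compounds 8.51 to 8.63. EPHB3, an ephrin receptor, rose by 0.92 ± 0.12, and DDR2, a collagen receptor, fell by 1.19 ± 0.07. The relatives of FGFR1 were picked out after their values were seen. FGFR4 rose by 1.07 ± 0.12 with both, with vehicle arrays at 6.28 to 6.64 and arrays with both at 7.33 to 7.60. FGFR2 rose by 0.49 ± 0.09 and FGFR3 by 0.47 ± 0.08 with both. The vehicle means of FGFR4 (6.44), FGFR2 (6.60) and MERTK (6.69) lay below 6.754, the 40th percentile of genes. Their distance from background with vehicle is unknown. All 4 FGFR kinases were called higher with panobinostat and with both. With JQ1 FGFR1 and FGFR3 were, while FGFR2 was at 0.17 (adjusted p = 0.228) and FGFR4 at 0.35 (adjusted p = 0.0727, and 0.0392 without vehicle replicate 3, where its value was 0.45).

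Of 32 listed ligands of the receptors, 26 were measured. The ALK ligands ALKAL1 and ALKAL2 were not, nor were TGFA, AREG, VEGFD and GDNF, so the counts cover no ligand of ALK. Of the 26, 1 rose and 1 fell with JQ1, 3 rose and 1 fell with panobinostat, and 3 rose and 2 fell with both (median with both 0.04). Of all genes, 17.6%, 29.3% and 37.7% were called in these comparisons. Only 7 of the 26 ligands had a mean signal over 6.754, the threshold for dim genes. The counts therefore cannot show whether ligands responded less than other genes. EGF and FGF20, whose calls are given below, were dim by this threshold (means over the 12 arrays 5.58 and 6.64). No detection call was used, so their distance from background is unknown. HBEGF, a membrane-tethered EGFR ligand, read 7.09 to 7.34 with vehicle, 8.04 to 8.20 with JQ1, 6.96 to 7.33 with panobinostat and 7.70 to 7.92 with both. It rose by 0.92 ± 0.11 with JQ1 and 0.59 ± 0.11 with both, opposite in direction to EGFR, and was not called with panobinostat (-0.04 ± 0.11, adjusted p = 0.815). FGF2, a ligand of FGFR1, read 8.89 to 9.23 with vehicle, 8.66 to 8.87 with JQ1, 7.82 to 8.15 with panobinostat and 7.61 to 7.81 with both. FGF2 fell by 1.05 ± 0.11 with panobinostat and by 1.29 ± 0.11 with both, opposite in direction to its receptor, and was at -0.27 with JQ1 (adjusted p = 0.129). NRTN, the GFRA2 ligand, rose by 0.83 ± 0.13 with panobinostat and 0.77 ± 0.13 with both, opposite to GFRA2. With JQ1 it was at 0.33 (adjusted p = 0.108, and 0.50 with adjusted p = 0.00357 without JQ1 replicate 3). The vehicle mean of NRTN, 6.72, lay below 6.754, and its distance from background with vehicle is unknown. VEGFC, a ligand of KDR and its lymphatic relative, fell by 0.60 ± 0.13 with both. It was also called lower with JQ1 (-0.42 ± 0.13, adjusted p = 0.041), but in only 10 of 21 alternatives (-0.55 to -0.31, adjusted p 0.00973 to 0.154). That call ended without any 1 of the JQ1 arrays (-0.37, -0.48 and -0.42), vehicle replicate 2 (-0.40) or 3 (-0.31), combination replicate 2 or panobinostat replicate 3 (-0.42 each). The remaining ligand calls were small: EGF with both (0.28 ± 0.08, lost without vehicle replicate 1 at 0.23 or combination replicate 1 at 0.23), FGF20 with panobinostat (0.51 ± 0.13) and VEGFA with panobinostat. VEGFA, the chief KDR ligand, was at 0.25 ± 0.08 there (adjusted p = 0.0303), lost without vehicle replicate 1 (0.20) or 2 (0.22) or panobinostat replicate 1 (0.26) or 3 (0.23), and at 0.06 ± 0.08 with both (adjusted p = 0.616).

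Co-receptors and partners numbered 24 measured genes, of which 1 rose and 2 fell with JQ1, 4 and 3 with panobinostat, and 5 and 6 with both (median with both -0.02), beside 17.6%, 29.3% and 37.7% of all genes called. RET, the signalling kinase for GFRA2, read 8.739 to 9.003 with vehicle and 8.55 to 8.76 with both. Its values of 0.09, 0.12 and -0.20 (each ± 0.11) with JQ1, panobinostat and both were not called (adjusted p = 0.652, 0.487 and 0.205). GFRA1, the GDNF co-receptor related to GFRA2, fell with JQ1 (-0.68 ± 0.12), panobinostat (-0.57 ± 0.12) and both (-0.70 ± 0.12). Unlike GFRA2, its arrays with both compounds (7.35 to 7.49) overlapped those with JQ1 (7.18 to 7.59). GFRA3, the artemin co-receptor, was at -0.32 ± 0.20 with both (adjusted p = 0.255, and 0.00778 to 0.557 over 21 alternatives, with 1 call). NCAM1, an alternative partner of GFRA proteins, rose by 0.33 ± 0.07 with both. NRP2, a neuropilin that assists VEGF receptors, fell 2.48-fold with both (-1.31 ± 0.10), its arrays dropping from 8.13 to 8.30 with vehicle to 6.75 to 7.13. NRP1 fell by 0.50 ± 0.11. SDC1, a heparan sulphate carrier, fell by 0.95 ± 0.10 with both and by 0.81 ± 0.10 with panobinostat. ERBB3, a dimer partner of EGFR, rose by 0.34 ± 0.09 with both. Its mean over the 12 arrays was 5.92, below the threshold of 6.754 for dim genes, and its distance from background is unknown.

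**Figure D3:**
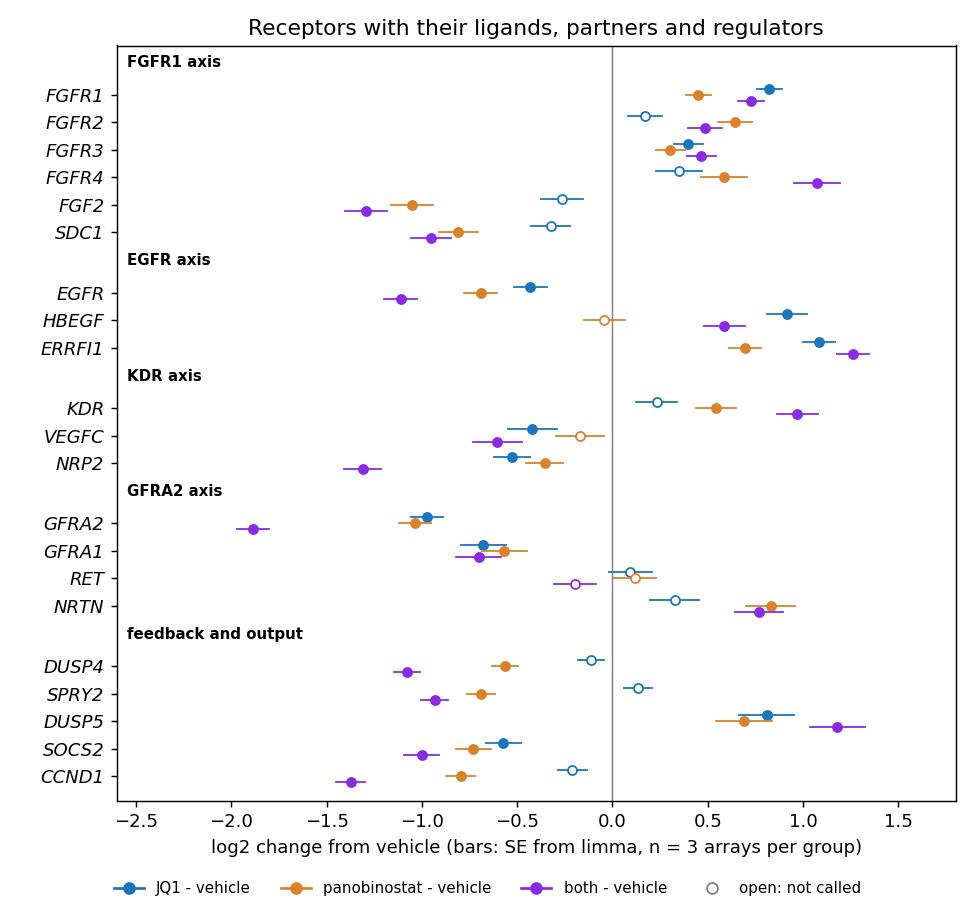
Log2 change from vehicle (x axis) of selected receptors, ligands, partners and regulators (y axis, grouped by receptor) with JQ1, panobinostat and both. Bars are SE from limma (n = 3 arrays per group) and open circles were not called. The genes are a selection from those named in the text, and ALK, VEGFA, FLT1 and NRP1 are among those not shown. FGFR1 to FGFR4 lie to the right of 0 while FGF2 lies to the left, and RET lies between -0.20 and 0.12 while GFRA2 and GFRA1 lie below 0.

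Downstream of the receptors, 21 adaptors and kinases of the RAS-ERK and PI3K relay were measured. Of these 4 rose and 3 fell with JQ1, 6 and 8 with panobinostat, and 5 and 9 with both (median with both -0.02). The shares called among all genes were 17.6%, 29.3% and 37.7%. STAT3, a transcription factor activated by receptors, rose by 1.20 ± 0.07 with both, and PDPK1, the kinase that activates AKT, by 1.05 ± 0.08. The PDPK1 rise was called in all 21 alternatives, with values of 0.79 to 1.11. GAB2, a docking protein, fell by 1.19 ± 0.10 and SHC3, a neuronal adaptor, by 1.17 ± 0.06.

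Feedback inhibitors of receptor signalling moved both ways: of 18 measured, 3 rose and 2 fell with JQ1, 6 and 4 with panobinostat, and 5 and 5 with both (median with both 0.04), where 17.6%, 29.3% and 37.7% of all genes were called. ERRFI1, which binds and inhibits the EGFR kinase, read 8.93 to 9.04 with vehicle and 10.18 to 10.33 with both. It rose with JQ1 (1.08 ± 0.08), panobinostat (0.70 ± 0.08) and both (2.40-fold, 1.26 ± 0.08, adjusted p = 4.08e-07), while EGFR fell. DUSP5, a nuclear ERK phosphatase, rose by 1.18 ± 0.14 with both (0.61 as the mean of its clusters, also called). DUSP4, another ERK phosphatase, fell by 1.08 ± 0.07 and SOCS2, a suppressor of cytokine and growth factor signals, by 1.00 ± 0.09.

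Of 9 measured transcripts that respond to ERK activity, 1 rose and 1 fell with JQ1, 1 and 4 with panobinostat, and 3 and 5 with both, the median with both being -0.40 against 0.02 for all genes. Among all genes 17.6%, 29.3% and 37.7% were called. CCND1, the cell cycle gene of cyclin D1, was at -0.21 ± 0.08 with JQ1 (adjusted p = 0.0861) and fell by 0.80 ± 0.08 with panobinostat and 1.37 ± 0.08 with both. Its arrays read 11.61 to 11.71 with vehicle and 10.20 to 10.38 with both. SPRY2, a feedback inhibitor of RAS signalling, fell by 0.69 ± 0.07 with panobinostat and 0.93 ± 0.07 with both, and was not called with JQ1 (0.13 ± 0.07, adjusted p = 0.249). EPHA2, an ephrin receptor also on this list, rose by 0.61 ± 0.09 with both. SPRY4 was at -0.05 ± 0.07 (adjusted p = 0.673). Of the distinct genes on these lists 130 were measured, and 13 stand on more than 1 list.

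Most adrenergic neuroblast markers fell in the groups that received panobinostat. Of the 11 measured, 1 rose and 2 fell with JQ1, 1 and 7 with panobinostat, and 1 and 10 with both, against 17.6%, 29.3% and 37.7% of all genes called. Their summed log2 signal was 118.9 to 119.0 on vehicle arrays, 118.1 to 118.5 with JQ1, 114.3 to 114.8 with panobinostat and 112.2 to 112.3 with both. HAND2, a transcription factor of sympathetic neuroblasts, averaged 11.80 with vehicle and 10.57 with both. Of 5 measured mesenchymal or Schwann markers, 0 rose and 2 fell with both (TWIST1, averaging 9.50 with vehicle and 8.60 with both, and CD44, 7.42 and 6.69). Of 4 immune markers 1 rose with both (CD68, 7.99 and 8.32), and limma called 0 of 5 epithelial markers in any comparison (3 of 35 unadjusted p-values were under 0.05). The part of these markers in the receptor changes was not tested.

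For each receptor, the protein-coding genes with the most similar changes from vehicle were sought among 8145 genes of sufficient signal, by the root mean square difference over the 3 log2 changes, from 12 arrays. Nearest to GFRA2 was STAMBPL1 (difference 0.08), a deubiquitinase, with changes of -1.01, -1.00 and -2.02, followed by PLPPR5 and TXNDC15. Nearest to EGFR was UBE2E3 (0.01), a ubiquitin-conjugating enzyme, at -0.42, -0.70 and -1.13, followed by RNF145 and TTC39C. OTUD1, a deubiquitinase, was nearest to FGFR1 (0.03) at 0.83, 0.49 and 0.69, followed by ACER2 and JAK1, the latter a kinase of cytokine receptors. ROGDI was nearest to KDR (0.02) and ZNF330 to ALK (0.01). The nearest gene to GFRA2 was farther from it than that of any other receptor was, and these distances are descriptions without a test.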

How the data were processed

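Total RNA of 12 samples was labelled as biotinylated cRNA and hybridised to Affymetrix arrays, per the labels' protocols. MAS5 and affy appear in the submitters' processing notes, with neither version nor role. The deposited table holds 53617 transcript clusters, and the values the authors deposited are read as log2 signals from their range of 1.391 to 14.1, with log base, background correction, normalization and genome build not given in the sources used here. Precision is limited by the number of arrays.

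A platform table named 16098 clusters, and each symbol was read by its brightest cluster (14884 genes). The deposited values were used unchanged. All 12 arrays entered 1 fit with limma 3.58.1 (lmFit and eBayes, R 4.3.3) with 1 coefficient per group. Residual degrees of freedom were 8 and the prior 3.457. The fit gave 6 pairwise comparisons and the interaction, two-sided. Exact permutation of 3 against 3 arrays cannot give p under 0.1 and was not used. The script was tested on simulated data.

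Genes named beside the receptors are up to 4 called genes of largest change per list and comparison, at most 1 not called, direct partners whatever their values, and those said to be chosen later. For likeness, 3 genes per receptor were taken. The receptors and lists were chosen with earlier results of these data known. Replicate numbers recur in the groups, but no label says that a number marks a shared culture or day, so no replicate term was used. Deviations from the group mean of same-number samples correlated at -0.69 to 0.24 over 18 pairs. Alternatives were median centring, quantile normalization, omission of dim genes, mean of clusters, all clusters, a replicate block, only the groups compared, a trended prior and omission of single arrays. Leaving out the 2 arrays farthest from their groups was added after seeing the data. Promoter windows and gene names came from RefSeq tables (GRCh38.p14).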

Additional observations from a re-analysis of the deposited data

Results flagged for a closer look

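For FGFR1, the change with panobinostat in the presence of JQ1 differed from that in its absence by -0.548 on the log2 scale (interaction term of limma, adjusted p = 0.0239, n = 3 arrays per group). Panobinostat alone gave 0.45, and panobinostat added to JQ1 gave -0.10. The call stood in 7 of 20 alternatives (adjusted p 0.00572 to 0.119) and ended with median centring, over all clusters, with the replicate block and in 9 of 12 fits without 1 array. It stands here because the 2 effects of the same compound differed by a test of the difference itself.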

How the results depend on the processing

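Settings were median centring, quantile normalization, omission of dim genes, the mean of clusters, all clusters, a replicate block, only the groups compared, a trended prior, omission of each array, and, chosen after seeing the data, omission of vehicle 1 and panobinostat 1. The 11 changes of GFRA2, EGFR, FGFR1 and KDR from vehicle that were called stayed called in all 229 refits. KDR has no value without dim genes, and the interaction none with only the groups compared. The FGFR1 interaction was not called with median centring (-0.5374), all clusters or the replicate block (-0.548 each) or without the 2 arrays (-0.4783), and spanned -0.5959 to -0.513 when single arrays were left out. ALK with panobinostat became called without dim genes, with a trended prior and with the replicate block (0.4096 each), and ALK with both (0.3055) and for panobinostat against JQ1 (0.3007) became called with the replicate block, as did KDR for panobinostat against JQ1 (0.31, adjusted p = 0.0431) and GFRA3 with both (adjusted p = 0.00778). The block ended the EGFR call for panobinostat against JQ1 (-0.2615). Replicate numbers did not pair the samples alike in all groups. Of 18 same-number correlations of deviations from the group mean 4 exceeded 0.1, and 0 of 12 arrays correlated best with their own number. Vehicle replicate 1 correlated at 0.201 with JQ1 replicate 1 and at -0.6935 with panobinostat replicate 1. No label says that a number marks a shared culture or day. With the replicate block, 935 genes were called higher and 1159 lower with JQ1, 1917 and 1982 with panobinostat, and 2500 and 2714 with both. Leaving out single arrays gave ALK with JQ1 -0.0416 to 0.219, ALK with both against panobinostat -0.1833 to 0.0017, KDR with JQ1 0.1704 to 0.3507 and HBEGF with panobinostat -0.117 to 0.0686 (0.1282 without the 2 arrays). The EGFR interaction, not called, spanned -0.042 to 0.1076 and was -0.088 without the 2 arrays. Over all 53617 clusters, 6707 were called with panobinostat and 9587 with both, against 4363 and 5614 of 14884 genes in the main fit. Genes called for both against panobinostat numbered 1325 with only the groups compared, against 2184 in the main fit. For the interaction they numbered 41 with median centring, 313 with quantile normalization, 259 without dim genes, 12 over all clusters, 48 with the replicate block, 322 with a trended prior, and 28 to 86 when single arrays were left out, against 113. The cause of these differences was not tested. Signal over background is unknown.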
